A study of Mus musculus with 20 samples.

Results

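The GABA interneuron identity genes Gad1, Gad2, Slc32a1, Pvalb, Calb1, Calb2, Lhx6, Erbb4 and Reln were followed in the prefrontal cortex of socially stressed mice. Every non-control array feature, a 60-base DNA strand printed on the array, that carried 1 of these 9 gene names was taken. This gave 15 features out of the 39429 measured, and 9 gene names out of 30210. The arrays were dual-colour Agilent mouse arrays, so RNA of stressed mice and of their own controls was read on the same array in different dyes. All animals were Swiss-Webster males, housed singly from 12 weeks of age and habituated for 22 days, so the controls lived in isolation too. Stress was an encounter with 4 to 5 group-housed males 4 months old in their cage. The acute group met them once for 15 minutes. The group with 8 days of stress and the group with 13 days had further encounters of 10 minutes, 2 and then 3 a day. The last group had 13 days of stress and then 5 days of rest. The acute, 8-day and 13-day mice were killed 24 h after the last encounter, and each group had undisturbed siblings of its own as controls. RNA came from a slice of the frontal pole 1 mm thick, and each of the 3 pairs of pools per group held equal amounts of RNA of 3 stressed and of 3 control mice. A pool averages its mice, so differences between single animals were not measured.

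GABA interneurons are the inhibitory neurons of the cortex. They make GABA from glutamate with the enzymes that Gad1 and Gad2 encode, and load it into synaptic vesicles with the transporter encoded by Slc32a1. The calcium-binding proteins parvalbumin (Pvalb), calbindin (Calb1) and calretinin (Calb2) mark different subclasses, and parvalbumin is typical of fast-spiking basket and chandelier cells. Lhx6 is a transcription factor of the interneurons born in the medial ganglionic eminence. Erbb4 is a neuregulin receptor found largely on interneurons of the cortex, and Reln encodes reelin, a secreted protein that several interneuron subclasses release in the adult. Inhibition in the prefrontal cortex is widely studied in relation to stress, anxiety and depression.

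Strands of part of the features are shown, since several genes gave different values at their features. The reason for those differences was not tested. Each line gives the 3′ end of the strand, written 5′ to 3′, and capitals mark a run of alternating A and C. The letters are those given in the array tables.
Gad1 A_52_P144310: tgtgtactgtctggaaaagaattctgatac
Gad2 A_51_P495462: accaggtatcatcttgcacgtgcttttctg
Slc32a1 A_52_P138926: ggaactgtatactgtgcgtgtggtgtgctc
Slc32a1 A_55_P1985286: tcgccgcctgcgtgctcaagggtctcttcg
Pvalb A_55_P2114437: tcctctatggccctcggatgacgccattct
Pvalb A_55_P2059040: ctttgctgtgataaaatacctgaaaagaga
Calb1 A_66_P102374: tggggtttctggattcttggcaacattcta
Calb1 A_55_P2181602: tttaaagattagccaacaataaatcctaga
Lhx6 A_55_P2005903: aACACACACACACACACACACACACACACA

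In mouse build mm9, as the array tables give it, the whole features lie at chr2:70439699-70439758 for Gad1 and chr2:22549095-22549154 for Gad2, both on the plus strand. Those of Slc32a1 lie at chr2:158441324-158441383 (A_52_P138926) and chr2:158440166-158440225 (A_55_P1985286), plus strand. Those of Pvalb lie on the minus strand at chr15:78021951-78022010 (A_55_P2114437) and chr15:78021549-78021608 (A_55_P2059040). Calb1 was measured at chr4:15835078-15835137 (A_66_P102374) and chr4:15833582-15833641 (A_55_P2181602), and Calb2 at chr8:112678555-112678614. The feature of Lhx6 with the repeat lies at chr2:35937644-35937703, and the others of this gene at chr2:35937470-35937529 (A_55_P2094158) and chr2:35958379-35958438 (A_55_P2094149), all on the minus strand. Erbb4 was measured at chr1:68078805-68078864 (A_55_P2119892) and chr1:68086686-68086745 (A_55_P2119888), and Reln at chr5:21404915-21404974, on the minus strand. The array tables name the transcript of each feature but not its exon or untranslated region, and no annotation of this build was used here. The feature of Lhx6 with the repeat is unusual among those of the array: a run of 24 or more bases of alternating CA or TG is present in 47 of 39429 features, or 0.119%.

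Of the 15 features, 12 were well above background in both dyes on all 20 arrays. Calb2 was so on 16 of 20 arrays. Lhx6 A_55_P2094149 passed on 1 of 20 arrays and Erbb4 A_55_P2119888 on 0 of 20, so no ratio is given for either. No feature of the 9 genes was saturated. Among the arrays used here, pools 2 and 3 of each time point had an original array and 1 with the dyes exchanged. Pool 1 had a single array, with stress in Cy5. The 4 time points shared all 5 slides, and pools 1 and 2 were scanned on another day than pool 3. Over all features, the original and the dye-swapped array of a pool, turned to the same direction, had correlations from -0.356 to -0.0920, so a ratio from 1 orientation alone carries a difference between the dyes. The swap averages it out in pools 2 and 3 but not in pool 1.

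At no time point did a feature of the 9 genes pass the test. The values are log2 ratios of stress over control, where 0 is no difference. A feature was called changed at an adjusted p under 0.05 in limma's fit over all 39429 features if its log2 ratio was also farther than 0.5 from 0. After acute stress, 0 of 15 features were called, against 0.00254% of all features (1 of 39429). After 8 days of stress it was 0 of 15, against 0% of all features. After 13 days it was 0 of 15, against 0.0228% (9 of 39429), and after 13 days of stress and 5 days of rest 0 of 15, against 0%. With so few calls in the whole table, a count of 0 in 15 is no departure from the background. At an unadjusted p under 0.05, limma's fit held 3, 0, 1 and 0 of the 15 features at the 4 time points in this order. Of all features, bright and dim, it held 1949, 944, 2832 and 1402 (4.94%, 2.39%, 7.18% and 3.56%). The 3 of 15 after acute stress were a larger share than that of all features, a difference that was not tested. In bulk tissue such as this slice, fewer cells of a type and less RNA per cell cannot be told apart.

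The size of change in the measured ratios that this fit left room for was small. The 95% intervals of the log2 ratios of the 13 features that were not dim lay within -0.375 and 0.449 after acute stress, that is between 0.771-fold and 1.37-fold of control. They lay within -0.257 and 0.248 after 8 days, -0.292 and 0.273 after 13 days, and -0.399 and 0.206 after rest. A measured ratio of 1.5-fold (0.58 on the log2 scale) was thus outside the interval of all 13 features at each time point in this fit. For the dim features of Lhx6 and Erbb4 no such bound can be given. The part of Lhx6 RNA in the signal of A_55_P2005903, the feature with the repeat, was not tested. Its interval therefore sets no bound on that RNA. Calb2 and Reln had mean log2 intensities of 7.63 and 7.76, close to the 7.28 and 7.27 of those dim features. Ratios so near the background can understate a change in RNA, so the intervals of Calb2 and Reln set no bound on their RNA. Slc32a1 A_55_P1985286, Calb1 A_55_P2181602 and Lhx6 A_55_P2094158 were also low, with mean log2 intensities of 8.28, 8.64 and 8.67. Their ratios can understate a change too. The median log2 ratio of the 15 features was 0.023, -0.018, 0.0082 and -0.027 at the 4 time points, and that of all features 0.0011, -0.00091, -0.00071 and -0.0015.

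**Figure D1:**
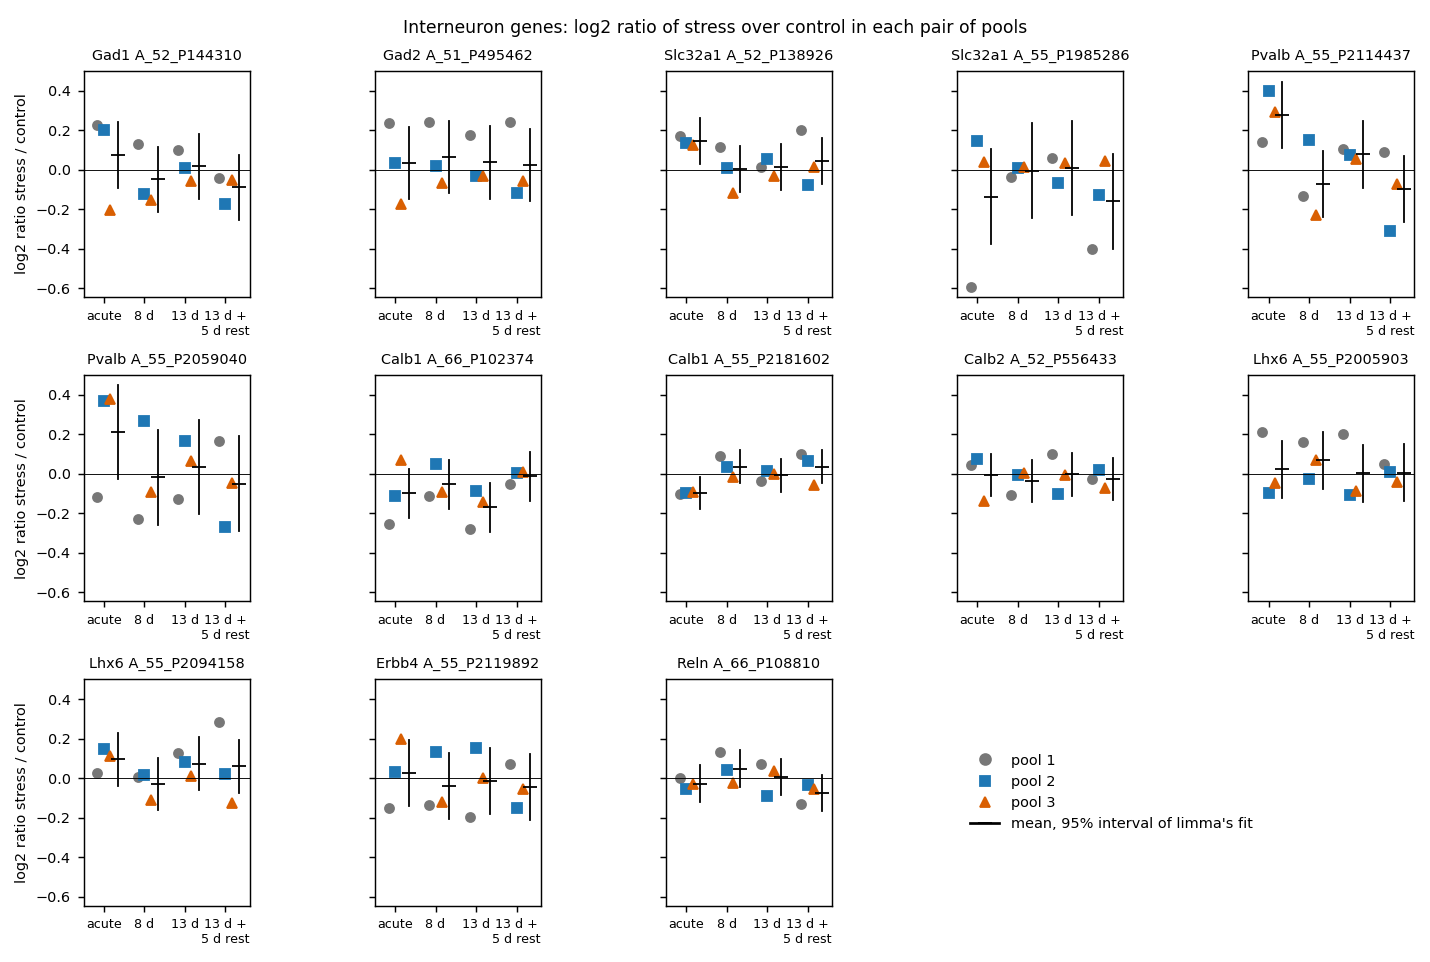
Log2 ratio of stress over control (y axis) of 13 features in each of the 3 pairs of pools at 4 time points (x axis), with the mean and 95% interval of limma's fit beside them. The features not well above background, Lhx6 A_55_P2094149 and Erbb4 A_55_P2119888, are left out. Pvalb after acute stress stands highest, with a mean of 0.28 for A_55_P2114437, and pool 1 of Slc32a1 A_55_P1985286 lowest, at -0.59.

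The enzymes of GABA synthesis did not pass the test at any time point. The log2 ratio of Gad1 was 0.23, 0.20 and -0.21 in the 3 acute pools, 0.13, -0.12 and -0.15 after 8 days, 0.097, 0.0058 and -0.055 after 13 days, and -0.041, -0.17 and -0.055 after rest. Gad2 stood at 0.24, 0.035 and -0.17 after acute stress, 0.24, 0.017 and -0.067 after 8 days, 0.17, -0.035 and -0.030 after 13 days, and 0.24, -0.12 and -0.057 after rest. Both genes were above 0 in acute pools 1 and 2 and below 0 in pool 3, and Gad2 was highest in pool 1 at every time point. Pool 1 was measured with stress in Cy5 alone. Where a pool had both orientations, the Gad2 array with stress in Cy5 exceeded its swap by 0.20 on average (-0.13 to 0.46). The median size of this gap over all features was 0.070. The part of the dye in the pool 1 values of Gad2 was not tested. The means were 0.075 ± 0.24 (SD, n = 3) for Gad1 and 0.033 ± 0.21 (SD, n = 3) for Gad2 after acute stress. After rest, all 3 pools of Gad1 were below 0, with a mean of -0.089 and a 95% interval of -0.26 to 0.076 (limma's adjusted p = 0.999).

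Acute pool 3, in which both genes were low, was also low for genes of the olfactory bulb, a region rich in GABA neurons that lies beside the frontal pole in the dissection. The mean log2 ratio of 7 olfactory bulb markers was 0.11, 0.26 and -0.35 in the 3 acute pools, and between -0.16 and 0.059 in the 9 other pools. Of the 7 markers, 5 were above 0 in acute pools 1 and 2 and below 0 in pool 3, among them Cdhr1, a cadherin of mitral cells (0.20, 0.70 and -0.66), and Doc2g (0.36, 0.56 and -0.48). The summed log2 level of the list ranged from 12.6 to 12.8 in the acute stress pools and from 12.7 to 12.9 in their controls. Tbx21 and Eomes, transcription factors that define the projection neurons of the bulb, were not well above background on every array. The part of olfactory bulb RNA in the values of Gad1 and Gad2 was not tested.

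**Figure D2:**
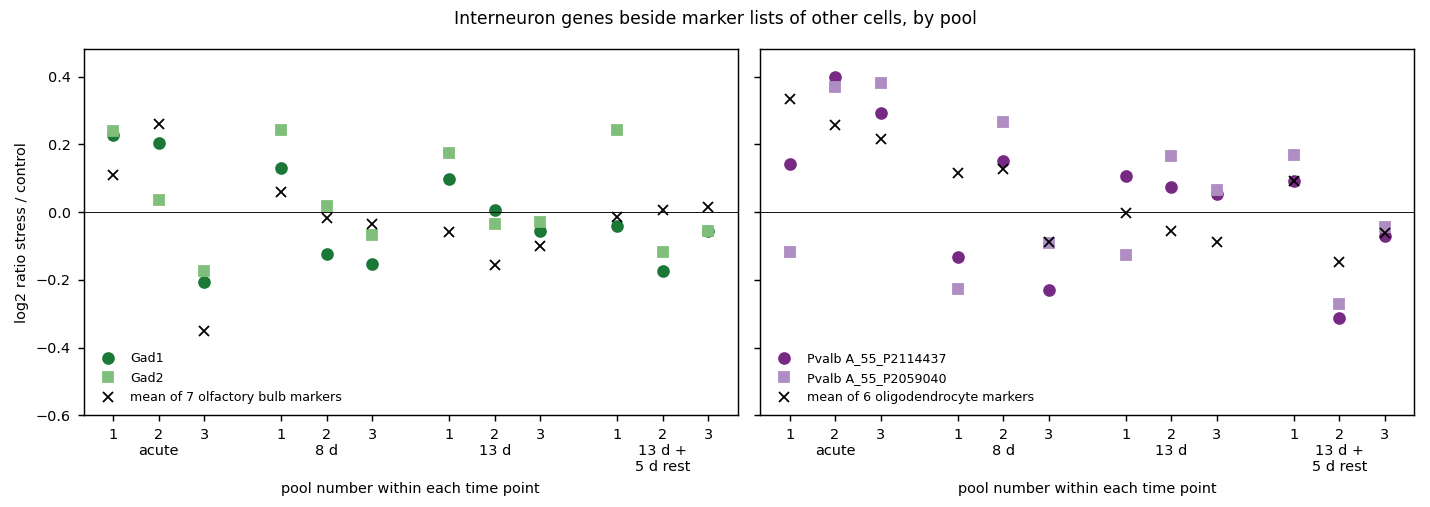
Log2 ratio of stress over control (y axis) in pools 1 to 3 of each time point (x axis): Gad1 and Gad2 beside the mean of 7 olfactory bulb markers on the left, the 2 features of Pvalb beside the mean of 6 oligodendrocyte markers on the right. In acute pool 3 Gad1 (-0.21), Gad2 (-0.17) and the olfactory bulb markers (-0.35) were all low, and in the acute pools the oligodendrocyte markers were between 0.21 and 0.33.

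Slc32a1, the vesicular GABA transporter, gave different values at its 2 features. At A_52_P138926 the acute pools stood close together, at 0.17, 0.14 and 0.12. The pools were at 0.11, 0.0098 and -0.12 after 8 days, 0.013, 0.054 and -0.032 after 13 days, and 0.20, -0.080 and 0.011 after rest. The acute mean was 0.14 ± 0.023 (SD, n = 3), a 1.10-fold difference with a 95% interval of 1.02 to 1.20, and all 3 acute pools lay above all pools of 8 and of 13 days. It did not pass the test (limma's unadjusted p = 0.0192, adjusted p = 0.946).

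This feature also had the largest gap between dyes of the 15. The array with stress in Cy5 exceeded its swap in all 8 pools that had both, by 0.34 on average (0.27 to 0.42), where the median size of this gap over all features was 0.070. In acute pool 2 the arrays read 0.31 with stress in Cy5 and -0.036 with stress in Cy3, and in acute pool 3 they read 0.28 and -0.030. Acute pool 1, at 0.17, was measured with stress in Cy5 alone. With a term for the dye over the 20 arrays the acute log2 ratio was 0.11 (adjusted p = 0.437), and with the slide as a block it was 0.14 (adjusted p = 0.129). Both fits take the 2 arrays of a pool as separate values, with an estimated correlation within a pool of 0.042 and 0.049. Arrays of the same RNA thus count almost as independent, so these p-values do not rest on pools alone.

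At the other feature of Slc32a1, A_55_P1985286, acute pool 1 stood apart at -0.59, while pools 2 and 3 were at 0.15 and 0.038. Pool 1 was also low after rest, at -0.40, where pools 2 and 3 were at -0.13 and 0.046. The remaining 6 pools lay between -0.067 and 0.061. The acute mean of -0.14 ± 0.40 (SD, n = 3) became 0.092 without pool 1, so its sign rested on that pool. Over the 12 pools the 2 features had a Pearson's r of -0.47 (permutation p = 0.124, adjusted 0.248 over 8 relations) and a Spearman's rho of -0.18 (permutation p = 0.573, adjusted 0.764), and r without the 2 farthest pools was -0.31. With each pool number's own mean removed, r was -0.21.

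**Figure D3:**
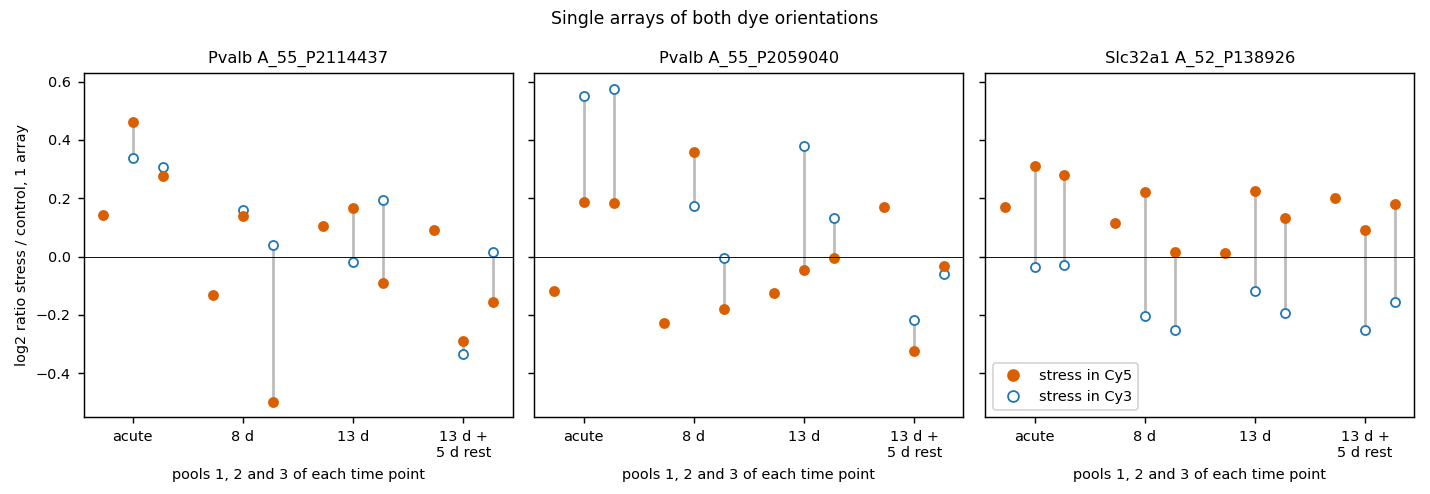
Log2 ratio of stress over control on single arrays (y axis), for pools 1, 2 and 3 of each time point (x axis). Filled points are arrays with stress in Cy5, open points arrays with stress in Cy3, and a grey line joins the 2 arrays of a pool. For Slc32a1 A_52_P138926 the filled point lies above the open one in all 8 pools, while both features of Pvalb are above 0 in both orientations in acute pools 2 and 3.

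Pvalb gave the largest mean of the 15 features after acute stress. At A_55_P2114437 the pools stood at 0.14, 0.40 and 0.29 after acute stress, a mean of 0.28 ± 0.13 (SD, n = 3). After 8 days they were at -0.13, 0.15 and -0.23, after 13 days at 0.11, 0.073 and 0.052, and after rest at 0.091, -0.31 and -0.072. All 3 acute pools were above 0, a 1.21-fold difference with a 95% interval of 1.08 to 1.36. In limma's fit the unadjusted p was 0.00340, which ranked 201 of 39429 features, and the adjusted p was 0.666, so the difference did not pass. Single arrays of acute pool 2 read 0.46 with stress in Cy5 and 0.34 with stress in Cy3, and those of pool 3 read 0.27 and 0.31, so all 5 acute arrays were above 0. The mean of pools 1 and 2, scanned on the same day, was 0.27, beside 0.29 in pool 3. With the slide as a block over the 20 arrays, the acute log2 ratio was 0.30 ± 0.071 (SE) and its adjusted p 0.105. In that fit the 2 arrays of a pool count almost as independent, so the SE is not one of pools.

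The second feature of Pvalb, A_55_P2059040, was at -0.12, 0.37 and 0.38 after acute stress, a mean of 0.21 ± 0.28 (SD, n = 3). After 8 days it was at -0.23, 0.27 and -0.092, after 13 days at -0.13, 0.17 and 0.065, and after rest at 0.17, -0.27 and -0.046. It shared the high values of acute pools 2 and 3 and was below 0 in pool 1 at the first 3 time points. Its acute adjusted p was 0.976. Over the 12 pools the 2 features of Pvalb had a Pearson's r of 0.82 (permutation p = 0.00111, adjusted 0.00888 over 8 relations) and a Spearman's rho of 0.73 (permutation p = 0.00942, adjusted 0.0377). Without the 2 farthest pools r was 0.69, and with each pool number's own mean removed, which also removes the mean of the scan day, it was 0.90.

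Genes of oligodendrocytes, the myelinating cells, were higher in the same acute pools. The mean log2 ratio of 6 oligodendrocyte markers was 0.33, 0.26 and 0.21 in acute pools 1 to 3, and all 6 markers were above 0 in all 3 pools. The summed log2 level of the list ranged from 14.3 to 14.6 in the acute stress pools and from 14.1 to 14.3 in their controls, and all 6 were well above background on every array. Mobp, a protein of the myelin sheath, had a log2 ratio of 0.49 (limma's adjusted p = 0.0103), just under the size needed for a call. The part of white matter in the value of Pvalb was not tested.

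The 2 features of Calb1, which encodes calbindin, did not give the same pattern. A_66_P102374 was at -0.26, -0.11 and 0.070 after acute stress, -0.11, 0.047 and -0.092 after 8 days, -0.28, -0.085 and -0.14 after 13 days, and -0.052, 0.0019 and 0.011 after rest. All 3 pools of 13 days were below 0, with a mean of -0.17 ± 0.099 (SD, n = 3), a 0.890-fold level with a 95% interval of 0.817 to 0.970. It was the lowest mean of the 15 features at any time point, and it did not pass (limma's unadjusted p = 0.0116, adjusted p = 0.548).

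At A_55_P2181602, which lies upstream, the pools of 13 days stood at -0.037, 0.012 and 0.00085, around 0. After acute stress this feature was at -0.10, -0.098 and -0.092, the tightest group of the 15 features, with a mean of -0.097 ± 0.0040 (SD, n = 3). It was at 0.089, 0.037 and -0.017 after 8 days and 0.099, 0.064 and -0.055 after rest, and its acute adjusted p in limma's fit was 0.976. The spread of this feature between pools of a group, 0.050, was at the 7.16th percentile of all features, so the acute SD was low even for it. Its single arrays lay farther apart. Those of acute pool 2 read -0.21 with stress in Cy5 and 0.0092 with stress in Cy3, and those of acute pool 3 read -0.26 and 0.078. The close agreement was thus one of pool averages and not of arrays. Over the 12 pools the r of the 2 features was 0.22 (permutation p = 0.485, adjusted 0.647) and rho 0.26 (permutation p = 0.416, adjusted 0.764), with r of -0.15 without the 2 farthest pools and of 0.48 with each pool number's mean removed. Calb2, which encodes calretinin, stayed between -0.14 and 0.098 in the 12 pools, with means from -0.036 to -0.0031.

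Lhx6 had 2 features that were well above background on all 20 arrays. The feature with the CA repeat, A_55_P2005903, had a mean log2 intensity of 13.8, beside 8.67 for A_55_P2094158. How much of the signal at the repeat came from Lhx6 RNA was not tested. A_55_P2094158 was above 0 in all 3 pools after acute stress (0.027, 0.15 and 0.11) and after 13 days (0.13, 0.079 and 0.011), with means of 0.095 and 0.072 that did not pass (adjusted p = 0.976 and 0.892 in limma's fit). After rest its pools ran from -0.12 to 0.28, a wide range. The feature with the CA repeat, A_55_P2005903, was at 0.21, -0.095 and -0.047 after acute stress, 0.16, -0.028 and 0.072 after 8 days, 0.20, -0.11 and -0.087 after 13 days, and 0.048, 0.010 and -0.043 after rest.

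In this feature pool 1 was the highest of its group at every time point. The same held of the 47 features with such a repeat: their median log2 ratio was between 0.53 and 0.61 in the 4 pools numbered 1, which were measured with stress in Cy5 alone, and between -0.10 and 0.060 in the 8 pools that had both dye orientations. The values of the feature of Lhx6 in pool 1, from 0.048 to 0.21, were below that median. The part of the dye in them was not tested. Over the 12 pools the feature with the repeat and A_55_P2094158 had an r of -0.0028 (permutation p = 0.993, adjusted 0.993). Their rho was -0.098 (permutation p = 0.766, adjusted 0.876). Without the 2 farthest pools r was -0.13, and with each pool number's mean removed it was -0.69.

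Erbb4, the neuregulin receptor, was at -0.15, 0.031 and 0.20 after acute stress, -0.14, 0.13 and -0.12 after 8 days, -0.20, 0.15 and 0.00058 after 13 days, and 0.073, -0.15 and -0.053 after rest, at A_55_P2119892. No time point had its 3 pools on 1 side of 0, and its means ran from -0.044 to 0.026. Reln was at -0.13, -0.036 and -0.054 after rest, all below 0, with a mean of -0.075 and a 95% interval of -0.17 to 0.018 (limma's adjusted p = 0.999). In the 9 other pools it lay between -0.089 and 0.13.

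Pools of a group on 1 side of 0 were no more frequent among the interneuron genes than in the whole table. After acute stress 4 of the 15 features had all 3 pools on 1 side, after 8 days 0, after 13 days 3 and after rest 3, the dim feature of Lhx6 among the last. Over all features the shares were 28.4%, 18.6%, 26.5% and 21.0%. Several of the features spread widely between pools. The SD between pools of a group stood at the 89.2nd percentile of all features for Gad1, the 93.2nd for Gad2, the 89.8th and 97.6th for the 2 features of Pvalb, the 97.6th for Slc32a1 A_55_P1985286 and the 89.8th for Erbb4 A_55_P2119892. Reln and Calb1 A_55_P2181602 were at the 21.0th and the 7.16th. These percentiles take no account of brightness.

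The differences between time points gave no call either. Between 8 days and acute stress, 0 of 15 features were called, against 0% of all features. Between 13 days and acute stress it was 0 of 15, against 0.00254% (1 of 39429), and between rest and 13 days 0 of 15, against 0%. At an unadjusted p under 0.05, limma's fit held 2, 0 and 0 of the 15 features. Of all features it held 899, 1850 and 1947 (2.28%, 4.69% and 4.94%). The 2 of 15 between 8 days and acute stress were a larger share than that of all features, which was not tested. The lowest p was that of Pvalb A_55_P2114437, with a difference of -0.35 (8 days minus acute stress) and a 95% interval of -0.59 to -0.11 (limma's unadjusted p = 0.00735, adjusted p = 1.00). The pools of the 2 groups overlapped for this feature, since the highest pool of 8 days (0.15) was above the lowest acute pool (0.14). Between rest and 13 days, Pvalb A_55_P2114437 differed by -0.17 (-0.41 to 0.063) and Gad1 by -0.11 (-0.34 to 0.13). In the 3 differences, 3, 3 and 1 of the 15 features had pools that did not overlap, and 7.02%, 10.8% and 9.59% of all features. The 2 differences from acute stress share the acute pools. With the slide as a block over the 20 arrays, 0 of 15 features were again called in the 3 differences, while calls over all features were 2, 10 and 6. Those calls, too, come from a fit that counts the arrays of a pool almost as independent.

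Gad1 and Gad2, which encode enzymes of the same reaction, moved together over the 12 pools, with a Pearson's r of 0.73 (permutation p = 0.00812, adjusted 0.0325 over 8 relations) and a Spearman's rho of 0.80 (permutation p = 0.00266, adjusted 0.0213). Without the 2 farthest pools r was 0.80, and with each pool number's own mean removed it was 0.55. The permutations exchanged all 12 pools freely, though pools of the same number share slides, dye orientation and scan day. The permutation p-values of the 8 relations thus take no account of the pool number. The features whose 12 log2 ratios were most like those of Gad1 among 21086 features bright enough to be ranked were Aldh1a1 (r = 0.957), Adck1 (r = 0.907) and Mettl11a (r = 0.897). Those most like Pvalb A_55_P2114437 among 21085 were Scn4b, a sodium channel subunit (r = 0.976), Hs3st4 (r = 0.926) and Nefh, the heavy neurofilament (r = 0.921). These were the highest of a long ranking and are given with no test. The log2 ratios of Scn4b were 0.19, 0.59 and 0.52 in the acute pools, -0.11, 0.27 and -0.33 after 8 days, and 0.049, -0.44 and -0.12 after rest. In these groups the pools stood in the order of those of Pvalb. After 13 days the order differed, with 0.042, 0.17 and -0.012 for Scn4b beside 0.11, 0.073 and 0.052 for Pvalb. Scn4b was picked by its likeness to Pvalb, so a shared order follows from that choice and adds no support.

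The levels of the 9 genes in the separate channels were compared over the 8 conditions, control and stress at 4 time points. When the 8 means of a feature were put in order, neighbours differed by less than the feature's SD between pools for 12 of 15 features. The exceptions were both features of Slc32a1 and Calb1 A_66_P102374. Small steps between neighbours do not make the whole range small. From lowest to highest mean, Pvalb A_55_P2114437 spanned 0.40 beside an SD of 0.24 and Gad1 0.21 beside 0.13, while Gad2 spanned 0.091 beside 0.11. Gad1 was lowest in the stress pools after rest (12.36 ± 0.13 on the log2 intensity scale, SD, n = 3) and highest in the acute stress pools (12.56 ± 0.16). Slc32a1 A_52_P138926 was highest in the acute stress pools (13.58 ± 0.088, SD, n = 3), 0.13 above the next group. Pvalb A_55_P2114437 ran from 11.95 ± 0.27 in the stress pools after rest to 12.36 ± 0.24 in the acute stress pools (SD, n = 3). Calb1 A_66_P102374 ran from 10.39 ± 0.097 in the stress pools of 13 days to 10.62 ± 0.062 in the acute controls (SD, n = 3), and its lowest group was 0.11 below the next. Of the 15 features, 7 had their highest mean in the acute stress pools. The share over all features was not computed, so this count has no background to be set against.

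**Figure D4:**
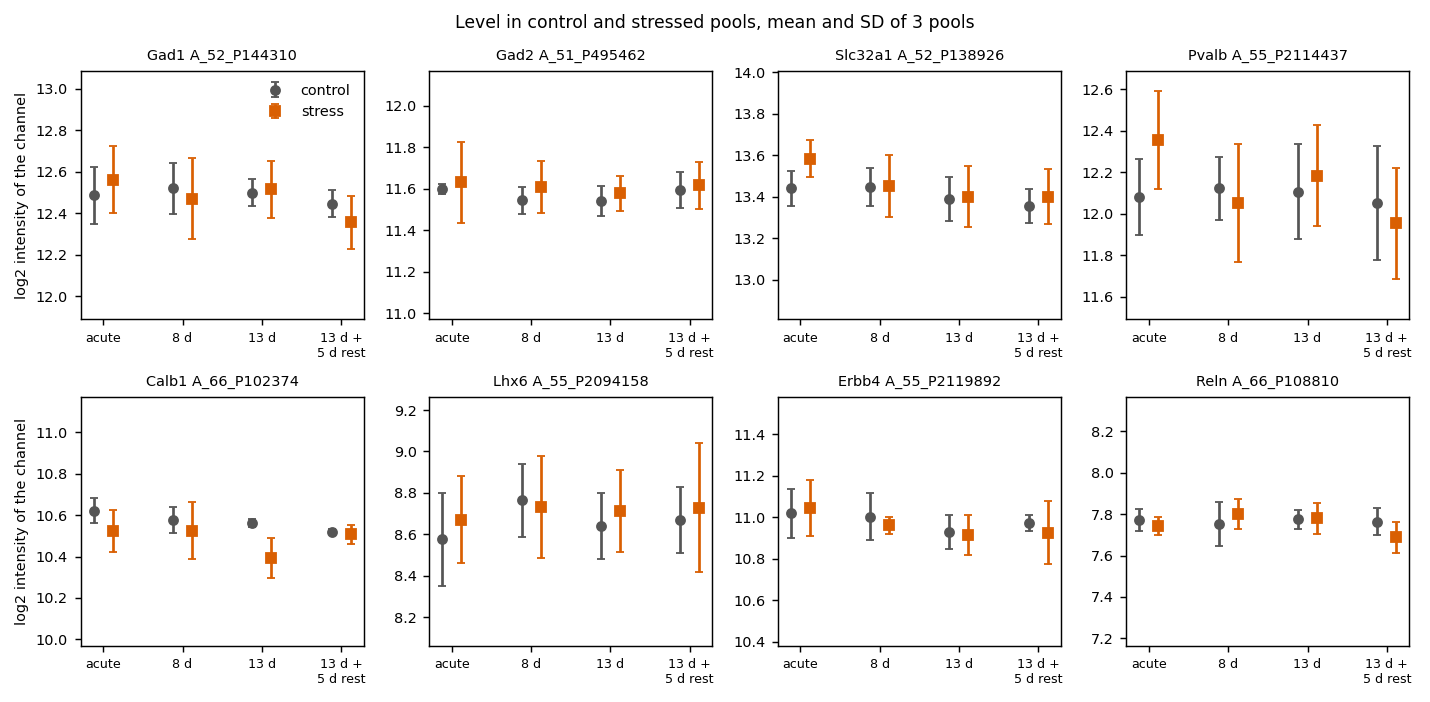
Log2 intensity of the control and the stress channel (y axis, mean and SD of 3 pools) at the 4 time points (x axis) for 8 features, on axes of equal span but different centre. The acute stress pools of Pvalb (12.36) and Slc32a1 (13.58) lie highest in their panels, and the stress pools of 13 days of Calb1 (10.39) lowest.

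Related genes, some of them expressed in other cells such as astrocytes, gave 0 calls as well. In 6 lists with 73 genes, each measured by its brightest feature, 0 were called in each of the 7 comparisons, and 12, 6, 9 and 1 had an unadjusted p under 0.05 in limma's fit at the 4 time points (16.4%, 8.22%, 12.3% and 1.37%). Of all features, bright and dim, 4.94%, 2.39%, 7.18% and 3.56% did, and of the 56 markers of other cells, also taken by their brightest feature, 13, 7, 15 and 3 (23.2%, 12.5%, 26.8% and 5.36%). The median log2 ratio of the 73 genes was -0.00035, -0.0072, -0.0021 and 0.0048. Of 8 genes of GABA synthesis, transport and breakdown, 3 were under 0.05 after acute stress. Slc6a13, a GABA transporter of the meninges and liver, had 0.024, -0.46 and -0.54 in the acute pools (mean -0.32, adjusted p = 0.799), so that pools 2 and 3 made the difference. Slc6a11, a GABA transporter of astrocytes, was above 0 in all 3 pools of 13 days (0.40, 0.19 and 0.17, mean 0.25, adjusted p = 0.180) and below 0 in all 3 of 8 days (-0.30, -0.19 and -0.24).

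Among 14 genes of fast-spiking cells and of the perineuronal net, the matrix that surrounds them, 5 had an unadjusted p under 0.05 after acute stress, 3 above and 2 below 0, and the median of the list was 0.011. The 3 above 0 were Cplx1 (mean 0.18), Hapln4 (0.20) and Kcnc1 (0.24). The 2 below 0 were Pthlh (mean -0.11) and Hapln1 (-0.080), each below 0 in all 3 acute pools. Of these 5 genes all but Cplx1 were picked out after their values were seen. Kcnc1, a potassium channel of fast-spiking cells, was at -0.018, 0.35 and 0.38 in the acute pools. Cplx1, which encodes a complexin of the synaptic vesicle machinery, was below 0 in all 3 pools after rest (-0.26, -0.23 and -0.23, adjusted p = 0.999 in limma's fit, unadjusted p = 0.000664). Bcan, the net component brevican, was below 0 in all 3 pools of 13 days (-0.26, -0.16 and -0.10, mean -0.17, adjusted p = 0.440).

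Of 16 lineage transcription factors, Dlx5 was above 0 in all 3 pools of 13 days (0.10, 0.20 and 0.10, adjusted p = 0.508), and Satb1 was at 0.32, 0.14 and -0.028 after acute stress. Of 22 peptides and subclass markers, Cort, which encodes cortistatin, was below 0 in all 3 pools of 8 days (-0.38, -0.16 and -0.16, adjusted p = 1.00), and Penk, which encodes proenkephalin, in all 3 of 13 days (-0.067, -0.14 and -0.27, adjusted p = 0.574). Among 6 partners of ErbB4, the neuregulin Nrg2 had an acute mean of -0.14 (adjusted p = 0.931) and Nrg3 a mean of -0.13 after 13 days (adjusted p = 0.623). Of 7 genes of reelin signalling, the kinase Fyn had an acute mean of -0.13 (adjusted p = 0.914) and the adaptor Dab1 a mean of 0.16 after 8 days (adjusted p = 1.00). None of these passed limma's test over all features.

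**Figure D5:**
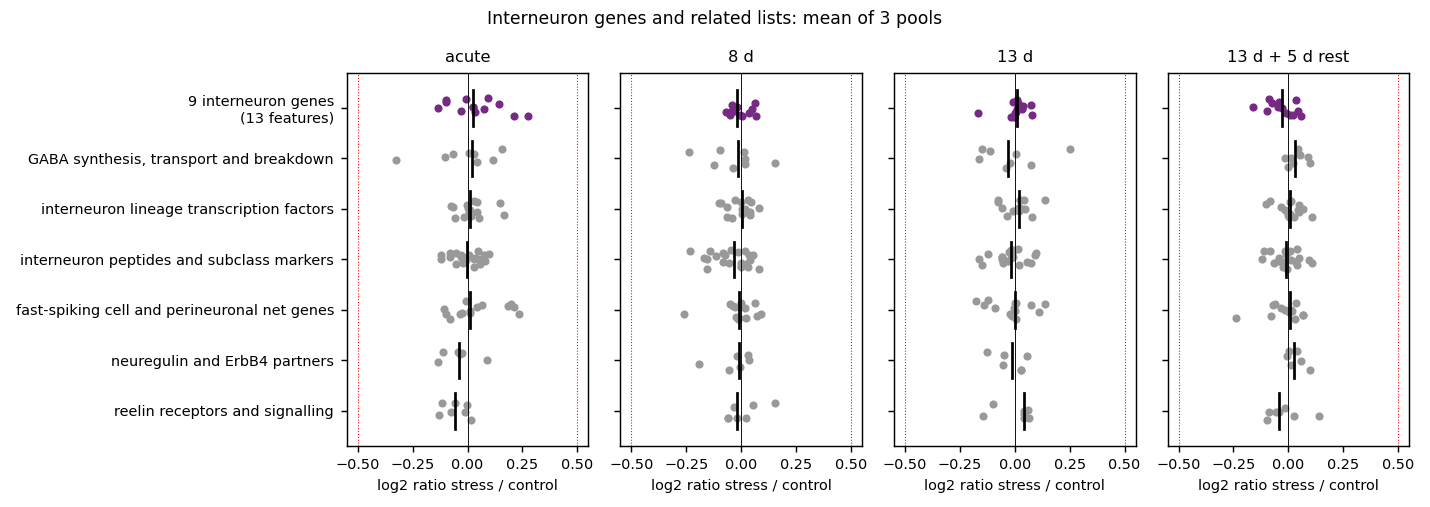
Mean log2 ratio of stress over control (x axis) of the interneuron genes and of the genes of 6 related lists (rows) at 4 time points. Each point is a feature, black bars are medians and dotted lines mark a log2 ratio of 0.5 in size. No point reaches the dotted lines, the farthest being Slc6a13 after acute stress, at -0.32.

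In the same pools 5 of 5 red cell markers were called after 13 days, with mean log2 ratios of 1.30, 1.61 and 1.18 in the 3 pools, while the interneuron features stayed between -0.28 and 0.20. Of the 56 genes in 9 marker lists of other cells, these 5 were the only calls at the 4 time points. As for the labelled tissue, every listed marker of neurons, excitatory neurons, astrocytes, oligodendrocytes, microglia and endothelium was well above background on every array, and so were 5 of 7 olfactory bulb and 5 of 6 striatal markers.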

How the data were processed

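The authors scanned the arrays and deposited, per array, mean spot intensities and local backgrounds from Agilent Feature Extraction (protocol GE2_1010_Sep10, mm9 annotation per the file headers), and its log10 ratio of red over green. The deposited value tables hold log2 ratios of stress over control, turned on dye swaps; the authors corrected the background by normexp and normalized by loess and Aquantile, and the normexp offset is not given in the sources used here. Deposited marks, 0 or 1 (unit score or other), flag outlier, saturated and dim spots. Here, mean intensities were corrected by normexp (offset 50) and normalized by loess within and Aquantile between arrays (R 4.3.3, limma 3.58.1, statmod 1.5.0), control and outlier spots having weight 0. The 43020 spots gave 39429 features. Swaps were turned and averaged per pool, leaving 12 pools. limma fitted a mean per time point (prior degrees of freedom 4.86), with Benjamini-Hochberg adjustment over all features; differences between time points are contrasts of that fit. Correlations used 100000 permutations. The number of arrays limits the precision. The fit was tested on simulated data. The paper describes a dye swap for every original array, but the 20 arrays used here hold none for pool 1. All features of the 9 genes are named; of each list, called genes, or else the 2 with the lowest p at a time point among those bright on every array, by the brightest feature. Members and lists were chosen with earlier results of these data known.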

Additional observations from a re-analysis of the deposited data

How the results depend on the processing

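With 26 alternatives in background correction, normalization, filter, model and samples left out, 0 features of the 9 interneuron genes were called in each of the 7 comparisons, as in the values reported, and this held without each pool in turn. The fit without pool 1, on pools 2 and 3 alone, was chosen after seeing the data. Normalization between arrays leaves ratios as they are by construction, and the second scan day alone, with 1 pool per group, could not be fitted. Of 1548 log2 ratios recomputed, 162 changed sign, none of them called and none over 0.14 in size in the values reported, and 64 moved by more than the SD between pools. The acute log2 ratio of Pvalb A_55_P2114437 was above 0 in 26 of 26 alternatives (0.22 to 0.45), as was that of Slc32a1 A_52_P138926 (0.11 to 0.34). The lowest adjusted p of a member, 0.0477, was that of Slc32a1 A_52_P138926 with original arrays alone, all with stress in Cy5, under the size needed for a call. Same-numbered pools had correlations of their deviations from -0.116 to 0.508 over 18 pairs (median 0.279), 12 of them over 0.1. Pools of the same number also share slides, dye orientation and scan day. The fit behind the values reported leaves the pool number out, so its p-values and intervals take no account of it. With the pool number as a replicate block, 0 members were called, the lowest adjusted p after acute stress was 0.311 and after 13 days 0.185, and calls over all features went from 1, 0, 9 and 0 to 2, 1, 10 and 0 at the 4 time points, and from 0, 1 and 0 to 3, 10 and 2 in the 3 differences.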
